A study of Homo sapiens with 8 samples.

Results

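The ERBB receptors (EGFR, ERBB2, ERBB3 and ERBB4) and 6 ligands of the epidermal growth factor (EGF) family (EGF, TGFA, AREG, EREG, HBEGF and BTC) were examined in ovarian cancer cells with GRHL2 knocked down. These 10 genes were chosen by symbol, as the receptor family and its EGF-type ligands, out of the 57820 genes measured. Of them, 8 had a mean of at least 1 FPKM (fragments scaled to the length of the transcript and to all fragments of the run) in at least 1 group, as did 15019 genes in all. EGF and EREG were under that level in both groups.

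EGF-family ligands are made as membrane-bound precursors, cut free by sheddases of the ADAM family, and bind receptors that pair in the plasma membrane. Pairing switches on the kinase domain inside the cell, which feeds the RAS–ERK and PI3K–AKT cascades. ERBB2 has no known ligand of its own and serves as the preferred partner of the others, whereas ERBB3 binds neuregulins but has little kinase activity and signals through its partner. EGFR and ERBB2 are well-known drivers and drug targets in carcinomas, and EGFR signalling is known for loosening epithelial junctions.

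The cells were OVCA429, an established human ovarian cancer line. One stable line carried a short hairpin RNA against GRHL2 (shGRHL2, hairpin #12), and the other carried one against luciferase (shLuc, the control). Both were grown with puromycin, and RNA was prepared with a stranded total RNA kit. GRHL2 is a transcription factor of epithelial cells, and the comparison addresses which genes follow its loss in epithelial–mesenchymal transition (EMT).

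The labels give 4 samples per group, titled as replicates, and do not name separate cultures. Their descriptions end in L001 to L004, a form often used for sequencing lanes. Within a group the 4 samples differed little, with a median coefficient of variation (CV) of 2.79% in shGRHL2 and 2.72% in shLuc over genes of 100 FPKM or more. As this was under a limit of 3%, set here with earlier results of these data known, they were counted as 4 runs of 1 library. Every SD is thus the spread between runs, and no difference has a replicate check or a p-value. Depth, estimated from the steps between low values, was about 9955000 to 10210000 fragments per shGRHL2 run and 9345000 to 9670000 fragments per shLuc run. GRHL2 itself was at 0.13, 0.15, 1.17 and 0.10 FPKM in the shGRHL2 runs and at 31.5, 38.7, 33.4 and 32.0 FPKM in the shLuc runs. The summed FPKM of 9 epithelial and ovarian carcinoma markers was 1801 to 1858 in shGRHL2 runs and 5021 to 5087 in shLuc runs, with 7 of the 9 lower and none at 0 in all runs. Of the 7 endothelial markers in the table, 3 were higher (TIE1, CDH5 and KDR), and TEK, VWF, CLDN5 and ERG averaged under 1 FPKM in both groups. The list summed to 94.0 to 99.2 FPKM in shGRHL2 runs and 0.86 to 1.28 FPKM in shLuc runs. Most of the shGRHL2 sum was TIE1, which averaged 84.7 FPKM there, while KDR averaged 1.27 FPKM. Fibroblast markers (1 higher, none lower, 1 of 8 reaching 1 FPKM) summed to 3.61 to 5.32 FPKM in shGRHL2 runs and 1.23 to 3.50 FPKM in shLuc runs. Leukocyte markers (1 of 7 higher, CD3E at 0 in all runs) summed to 11.3 to 12.4 FPKM in shGRHL2 runs and 3.78 to 5.09 FPKM in shLuc runs. Mesothelial markers (1 of 6 higher and 1 lower, WT1 at 0 in all runs) summed to 37.7 to 43.8 FPKM in shGRHL2 runs and 28.8 to 36.2 FPKM in shLuc runs. The part of these markers in the results on the ERBB genes was not tested. Each of these markers was read like the ERBB genes: log2(FPKM + 1) was averaged over the runs of a group and shLuc subtracted from shGRHL2, and "higher" or "lower" means a difference of at least 1, which is 2-fold on that scale.

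ERBB3 and HBEGF were lower in shGRHL2, and no member was higher. ERBB3 averaged 4.28 FPKM in shGRHL2 and 27.0 FPKM in shLuc, 6.31-fold lower. HBEGF averaged 4.74 FPKM in shGRHL2 and 16.5 FPKM in shLuc, 3.48-fold lower. The other 6 tested members stayed within the 2-fold limit. EGFR was the only member with every shGRHL2 run above every shLuc run, while ERBB2, ERBB3, TGFA and HBEGF had every shGRHL2 run below every shLuc run.

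Over all tested genes, 7.24% were lower and 4.97% higher, against 2 and 0 of 8 members. The runs of 33.2% of tested genes lay wholly below, and of 18.5% wholly above, those of shLuc, against 4 and 1 of 8 members. The median difference was -0.41 over the 8 members, -0.42 over the 4 receptors and -0.41 over the 4 tested ligands, and it was -0.10 over all tested genes. With the mitochondrial ribosomal RNAs MT-RNR1 and MT-RNR2 left out of each total, all tested genes shifted up by 0.14 at the median. The split over all tested genes was then 1052 higher and 986 lower, beside 746 higher and 1087 lower as deposited. These RNAs took 25.9% of fragments in shGRHL2 and 17.2% in shLuc, and ERBB3 and HBEGF were lower under that scaling too, with differences of -2.34 and -1.51.

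**Figure D1:**
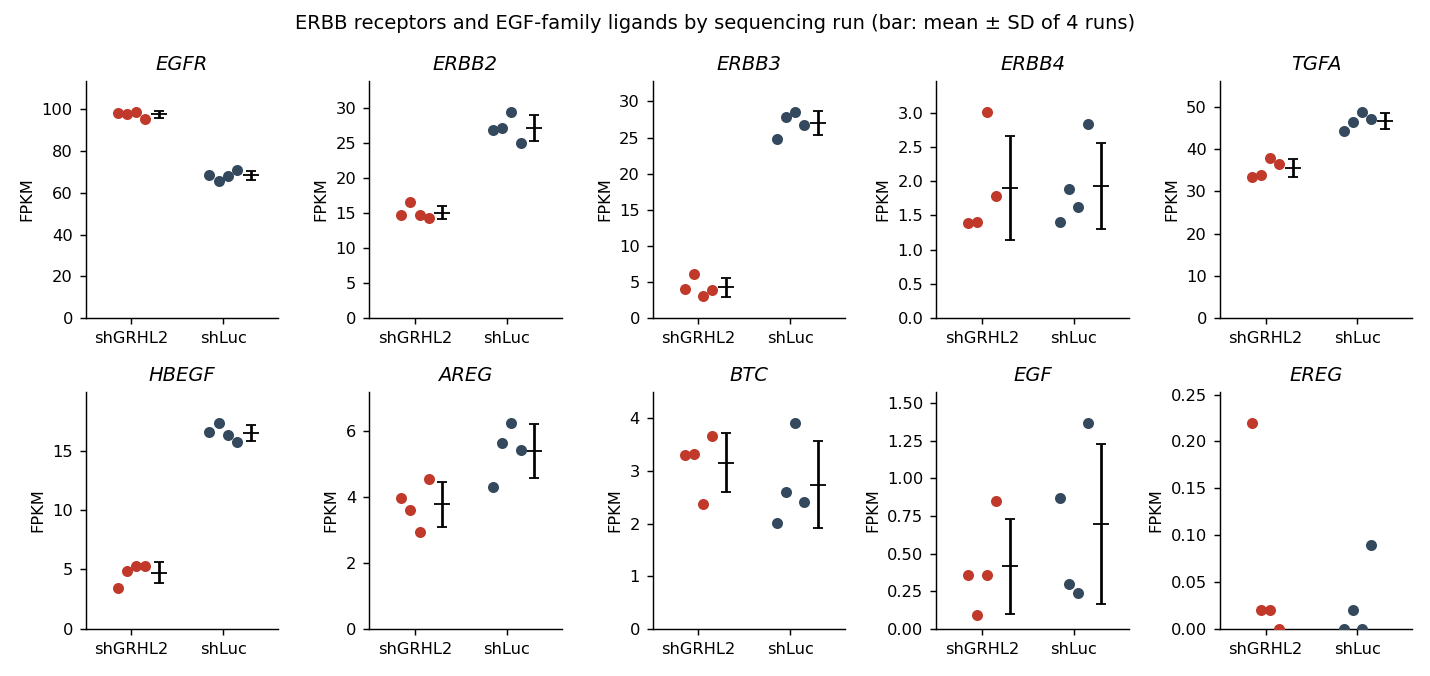
FPKM of the 10 ERBB receptors and EGF-family ligands in each of 4 shGRHL2 runs (red, left) and 4 shLuc runs (dark, right), with the mean and SD of the runs beside them (none is drawn for EREG, which was listed at 0 in several runs). ERBB3 and HBEGF are the members whose points are farthest apart, and the groups overlap in ERBB4, AREG, BTC, EGF and EREG.

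The start regions of the members are shown for 3 genes that differ in direction: HBEGF, which was lower, ERBB2, whose runs were all below, and EGFR, whose runs were all above. RefSeq (GRCh38.p14) gave the 250 bases before and 50 after the annotated start for 9 of the 10 members (all but ERBB3), in 11 windows, and the first of the EGFR windows is printed. The windows are chr5:140346554-140346853 (minus strand) for HBEGF, chr17:39687844-39688143 (plus strand) for ERBB2 and chr7:55018767-55019066 (plus strand) for EGFR. In GRCh37, the annotated ERBB2 gene begins at 37844167, inside PGAP3 (chr17:37827375-37853050, minus strand). The ERBB2 window at the gene's 5′ end therefore cannot be ascribed to ERBB2 alone. No other ERBB2 window was in the set, so any other start of this gene is not covered. Capitals mark CACCTG, the core site of ZEB repressors, on either strand.
HBEGF: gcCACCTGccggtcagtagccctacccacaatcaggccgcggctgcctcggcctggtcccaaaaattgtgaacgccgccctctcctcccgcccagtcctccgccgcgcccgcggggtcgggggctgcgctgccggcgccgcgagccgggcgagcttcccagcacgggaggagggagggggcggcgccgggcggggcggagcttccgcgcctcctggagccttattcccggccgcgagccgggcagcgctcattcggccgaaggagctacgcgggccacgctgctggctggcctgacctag
ERBB2: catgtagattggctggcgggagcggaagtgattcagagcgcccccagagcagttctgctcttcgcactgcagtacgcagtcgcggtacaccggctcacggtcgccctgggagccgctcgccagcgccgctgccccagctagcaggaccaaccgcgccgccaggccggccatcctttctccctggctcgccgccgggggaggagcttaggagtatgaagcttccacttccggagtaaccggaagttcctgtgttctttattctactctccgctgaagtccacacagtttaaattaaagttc
EGFR: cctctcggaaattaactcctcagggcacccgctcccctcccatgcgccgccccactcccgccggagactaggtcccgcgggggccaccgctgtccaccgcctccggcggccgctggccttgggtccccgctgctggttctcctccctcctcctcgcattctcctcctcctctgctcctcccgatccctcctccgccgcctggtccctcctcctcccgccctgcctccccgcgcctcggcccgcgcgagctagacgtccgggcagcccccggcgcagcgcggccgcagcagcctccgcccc
AACCGGTT, the site of the Grainyhead family to which GRHL2 belongs, was in none of these 11 windows on either strand, nor was its relaxed form AACNNGTT, of which AACCGGTT is one case. Over all 35116 RefSeq windows of the same length, 0.134% held AACCGGTT and 3.52% held AACNNGTT. CACCTG was in 5 of the 11 windows (1 each of TGFA, EREG, AREG, BTC and HBEGF), against 20.6% of all windows. Of these genes only HBEGF was lower, while TGFA, AREG and BTC stayed within the limit and EREG was too low to compare. AREG had 2 sites and HBEGF 1, at position 3 from the 5′ end, and another TGFA window had none. The HBEGF window was 75.0% G and C with 38 CpG dinucleotides, the EGFR window 75.3% with 33 and the ERBB2 window 60.7% with 24, against medians of 58.7% and 14 over all windows. These letter matches are a description of the windows and not evidence of binding.

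EGFR, the receptor of EGF, TGFA and AREG, was the most abundant of the 10 genes in both groups. It lies at chr7:55086710-55279321 on the plus strand (GRCh37, as for the other gene positions here). Its values were 98.3, 97.6, 98.6 and 95.2 FPKM in the shGRHL2 runs, against 68.6, 65.8, 68.2 and 70.8 FPKM in the shLuc runs. The lowest shGRHL2 run was above the highest shLuc run, and the means were 97.4 ± 1.55 FPKM in shGRHL2 and 68.3 ± 2.08 FPKM in shLuc. Their ratio was 1.43 and the log2 difference 0.51, within the 2-fold limit and 2109th from the top of the 15019 tested genes, and the difference lay between 0.40 and 0.67 over the settings tried. The antisense gene EGFR-AS1, inside EGFR on the opposite strand, was at 2.21 FPKM in shGRHL2 and 1.67 FPKM in shLuc.

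ERBB2 (HER2), the receptor without a known ligand, lies at chr17:37844167-37886679 on the plus strand. It was measured at 14.7, 16.6, 14.8 and 14.4 FPKM in the shGRHL2 runs, against 27.0, 27.3, 29.5 and 25.03 FPKM in the shLuc runs. The groups did not overlap, and the means were 15.1 ± 0.99 FPKM in shGRHL2 and 27.2 ± 1.83 FPKM in shLuc. The log2 difference of -0.81 was short of the limit of 1, and over all the scalings and settings tried it lay between -0.90 and -0.66. ERBB2 ranked 1595th from the lowest of 15019 differences.

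The genes beside ERBB2 on chromosome 17 are often amplified with it in carcinomas, and their levels were read next to it. STARD3, a cholesterol transporter of endosomes, averaged 14.8 FPKM in shGRHL2 and 12.6 FPKM in shLuc, with overlapping runs. The ratio of ERBB2 to STARD3 was 1.04 ± 0.15 in shGRHL2 and 2.168 ± 0.11 in shLuc. GRB7, an adaptor that binds ERBB2, averaged 4.47 FPKM in shGRHL2 and 8.30 FPKM in shLuc, a log2 difference of -0.76. MIEN1 averaged 15.9 FPKM in shGRHL2 and 20.2 FPKM in shLuc (-0.33), and PGAP3, a remodeler of lipid anchors, 1.62 FPKM in shGRHL2 and 1.41 FPKM in shLuc (0.08). Both overlap ERBB2 on the opposite strand, and IKZF3 did not reach 1 FPKM. None of the 4 tested neighbours passed the limit, and their median difference was -0.12 as deposited and 0.01 with the mitochondrial ribosomal RNAs left out.

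ERBB3 (HER3), the neuregulin receptor with little kinase activity, had the largest difference of the tested members. It lies at chr12:56470583-56497289 on the plus strand. Its values were 4.06, 6.11, 3.07 and 3.88 FPKM in the shGRHL2 runs, against 24.8, 27.9, 28.5 and 26.7 FPKM in the shLuc runs. The highest shGRHL2 run was far below the lowest shLuc run, and the means were 4.28 ± 1.29 FPKM in shGRHL2 and 27.0 ± 1.65 FPKM in shLuc. The log2 difference was -2.43, the 144th lowest of 15019, and it ranged from -2.67 to -2.32 over the settings tried. In bulk RNA, fewer cells with a transcript and less of it per cell cannot be told apart.

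The ERBB3 value rested on about 327 fragments in the shGRHL2 library and 1951 in the shLuc library. Its CV between shGRHL2 runs was 30.2%, where counting alone would give about 11.1% per run. The 22 transcripts listed for ERBB3 had a weighted length of 2052 bases, while its longest annotated transcript has 6264. RP11-603J24.9, a gene that overlaps the end of ERBB3 on the same strand (singled out after its values were seen), was listed at 0, 0, 0 and 5.06 FPKM in the shGRHL2 runs, against 1.10, 14.6, 15.1 and 12.6 FPKM in the shLuc runs. Fragments shared by both genes are divided between them in the authors' estimate, so the rows of both are uncertain to that extent. Added together, the FPKM of the 2 genes averaged 5.55 ± 2.59 in shGRHL2 and 37.8 ± 8.17 in shLuc, a log2 difference of -2.62. Their effective lengths were 1901 bases (ERBB3) and 338 bases (RP11-603J24.9), so a fragment of RP11-603J24.9 weighs more in this sum. RP11-603J24.9 held only about 17 fragments in shGRHL2 and 139 in shLuc. The sum therefore does not undo a division of fragments, and its larger difference is not read as a larger change.

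ERBB4, which binds neuregulins, HBEGF and BTC, was low in both groups but above the 1 FPKM used to count a gene as tested. It lies at chr2:212240442-213403565 on the minus strand. Its values were 1.39, 1.41, 3.01 and 1.79 FPKM in the shGRHL2 runs, against 1.40, 1.89, 1.62 and 2.83 FPKM in the shLuc runs. The runs overlapped throughout, with means of 1.90 ± 0.76 FPKM in shGRHL2 and 1.94 ± 0.63 FPKM in shLuc. About 579 fragments in the shGRHL2 library and 556 in the shLuc library stood behind these values. The CV of ERBB4 between runs was 40.1% in shGRHL2 and 32.5% in shLuc. Counting alone would give about 8.3% and 8.5% per run. The log2 difference of -0.03 took either sign across the scalings.

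The 4 receptor genes summed to nearly the same level as deposited, but the shares of EGFR, ERBB2 and ERBB3 differed. Their total was 118.7 ± 2.69 FPKM in shGRHL2 and 124.5 ± 2.75 FPKM in shLuc. EGFR made up 82.1 ± 1.27% of it in shGRHL2 and 54.9 ± 1.71% in shLuc. The share of ERBB2 was 12.7 ± 0.60% in shGRHL2 and 21.8 ± 1.33% in shLuc, and that of ERBB3 was 3.60 ± 1.03% in shGRHL2 and 21.7 ± 1.06% in shLuc. These shares are taken within a run and so do not depend on how runs are scaled. They are shares of length-corrected RNA and not of receptor protein.

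Ratios between receptors within a run showed the same separation. EGFR to ERBB3 was 24.2, 16.0, 32.1 and 24.5 in the shGRHL2 runs, against 2.76, 2.36, 2.39 and 2.65 in the shLuc runs. EGFR to ERBB2 averaged 6.46 ± 0.38 in shGRHL2 and 2.52 ± 0.22 in shLuc. ERBB2 and ERBB3, which form a known signalling pair, were at a ratio of 3.72 ± 0.86 in shGRHL2 and 1.01 ± 0.07 in shLuc. These shares and ratios between genes depend on the weighted lengths, 2052 bases for ERBB3, 3546 for ERBB2 and 8743 for EGFR. In estimated fragments, the shLuc library held about 3514 for ERBB2 and 1951 for ERBB3.

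**Figure D2:**
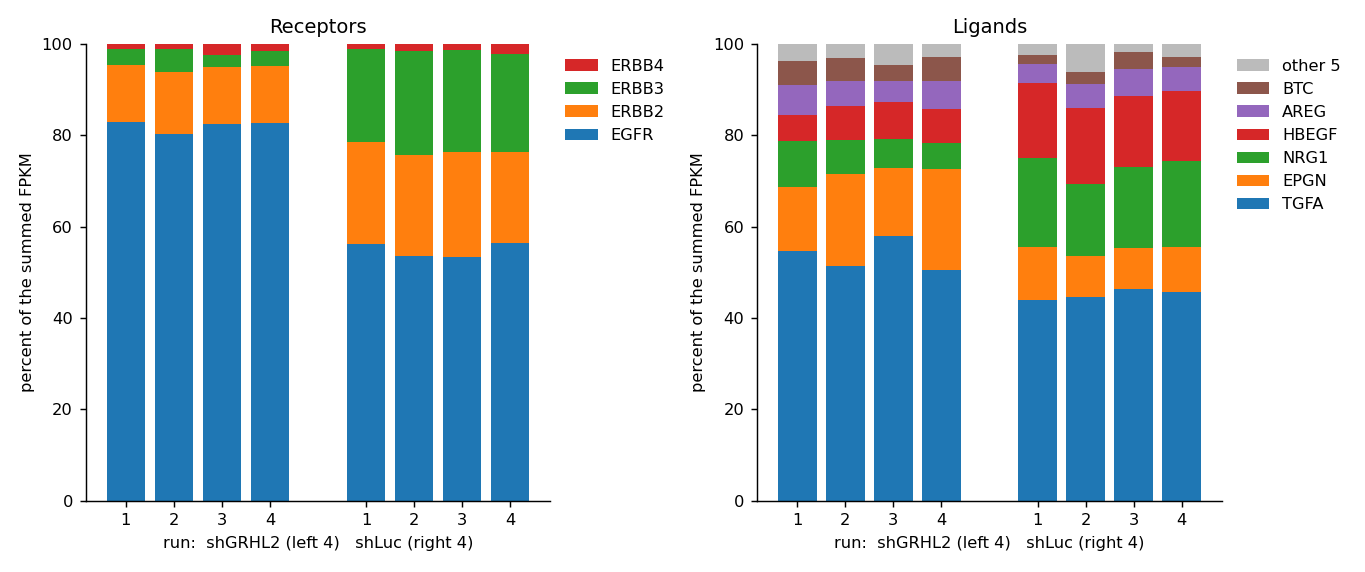
Share of each gene in the summed FPKM (percent) of the 4 ERBB receptors (left panel) and of 11 EGF-family ligands (right panel), 1 bar per run, with the 4 shGRHL2 runs left of the 4 shLuc runs. EGFR holds 80.2% to 83.0% of the receptor total in shGRHL2 runs and 53.4% to 56.5% in shLuc runs, and the HBEGF and NRG1 segments are smaller in every shGRHL2 run.

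TGFA, a ligand of EGFR, was the most abundant ligand in both groups. It lies at chr2:70674416-70781325 on the minus strand. Its values were 33.5, 33.9, 37.9 and 36.5 FPKM in the shGRHL2 runs, against 44.2, 46.4, 48.8 and 47.1 FPKM in the shLuc runs. All shGRHL2 runs were below all shLuc runs, but the log2 difference of -0.39 was within the limit, and it lay between -0.49 and -0.23 over the settings tried. The means were 35.4 ± 2.12 FPKM in shGRHL2 and 46.6 ± 1.91 FPKM in shLuc.

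HBEGF, heparin-binding EGF-like growth factor, binds EGFR and ERBB4, and its membrane precursor is the receptor of diphtheria toxin. It lies at chr5:139712428-139726188 on the minus strand. Its values were 3.48, 4.90, 5.28 and 5.29 FPKM in the shGRHL2 runs, against 16.6, 17.4, 16.3 and 15.7 FPKM in the shLuc runs. The groups stood wholly apart, and the means were 4.74 ± 0.86 FPKM in shGRHL2 and 16.5 ± 0.69 FPKM in shLuc. The log2 difference was -1.62, the 441st lowest of 15019, and it lay between -1.80 and -1.51 over the settings tried. About 426 fragments in the shGRHL2 library and 1401 in the shLuc library stood behind these values. The ratio of TGFA to HBEGF was 7.65 ± 1.32 in shGRHL2 and 2.83 ± 0.19 in shLuc.

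AREG, amphiregulin, binds EGFR and lies at chr4:75310853-75320722 on the plus strand. Its values were 3.96, 3.61, 2.94 and 4.55 FPKM in the shGRHL2 runs, against 4.28, 5.62, 6.24 and 5.41 FPKM in the shLuc runs. The highest shGRHL2 run overlapped the lowest shLuc run, and the log2 difference was -0.42. The annotation used by the authors also holds AREGB, a copy of AREG. Their transcripts were 99.92% identical (1 edit over the 1234 bases of the shorter, AREG), so the counting could divide fragments between the 2 rows. AREGB was at 0.13, 0.09, 0.12 and 0.12 FPKM in the shGRHL2 runs and listed at 0 in the 4 shLuc runs, and about 3 fragments stood behind its shGRHL2 values. The sum of both rows averaged 3.88 FPKM in shGRHL2 and 5.39 FPKM in shLuc, a log2 difference of -0.39.

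BTC, betacellulin, binds EGFR and ERBB4 and lies at chr4:75669969-75719733 on the minus strand. Its values were 3.30, 3.32, 2.37 and 3.66 FPKM in the shGRHL2 runs, against 2.01, 2.60, 3.92 and 2.42 FPKM in the shLuc runs. The runs overlapped, and the log2 difference was 0.17. The means were 3.16 ± 0.55 FPKM in shGRHL2 and 2.74 ± 0.83 FPKM in shLuc.

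EGF, the founding ligand of the family, lies at chr4:110834039-110934922 on the plus strand and was low in both groups. Its values were 0.36, 0.09, 0.36 and 0.85 FPKM in the shGRHL2 runs, against 0.87, 0.30, 0.24 and 1.37 FPKM in the shLuc runs. The runs overlapped, and about 68 fragments in the shGRHL2 library and 107 in the shLuc library were behind them. EREG, epiregulin, lies at chr4:75230862-75254466 on the plus strand. It was at 0.22, 0.02, 0.02 and 0 FPKM in the shGRHL2 runs, against 0, 0.02, 0 and 0.09 FPKM in the shLuc runs. With about 12 fragments in the shGRHL2 library and 5 in the shLuc library, a difference in EREG was not detectable at this depth.

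Of the 6 ligands among the members, the total was 47.6 ± 2.77 FPKM in shGRHL2 and 72.0 ± 3.11 FPKM in shLuc. TGFA made up 74.5 ± 2.396% of it in shGRHL2 and 64.8 ± 0.50% in shLuc. HBEGF made up 9.92 ± 1.45% in shGRHL2 and 22.9 ± 1.47% in shLuc. The share of AREG was 7.92% in shGRHL2 and 7.46% in shLuc, and that of BTC was 6.66 ± 1.21% in shGRHL2 and 3.78 ± 0.98% in shLuc.

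EPGN, EREG, AREG, AREGB and BTC lie in this order within 545.5 kb of chromosome 4, and none of the 3 tested genes of this cluster passed the limit. EPGN, epigen, is a ligand of EGFR. Its values were 8.55, 13.4, 9.76 and 15.9 FPKM in the shGRHL2 runs, against 11.8, 9.41, 9.48 and 10.3 FPKM in the shLuc runs. Its runs overlapped, as did those of AREG and BTC, and the log2 difference of EPGN was 0.17.

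The neuregulins are the ligands of ERBB3 and ERBB4, and NRG1 was lower in shGRHL2. Its values were 6.15, 4.83, 4.11 and 4.06 FPKM in the shGRHL2 runs, against 19.6, 16.4, 18.5 and 19.4 FPKM in the shLuc runs. The groups did not overlap, the level was 3.85-fold lower and the log2 difference was -1.76. NRG4, an ERBB4 ligand, averaged 1.24 FPKM in shGRHL2 and 2.60 FPKM in shLuc, and 1.42 FPKM in shLuc without its run 2, which alone read 6.11 FPKM. NRG2 stayed at or under 1.01 FPKM in shGRHL2 runs and 0.23 FPKM in shLuc runs, and NRG3 was listed at 0 in all 8 runs. Over all 11 ligands, NRG1 made up 7.32% of the summed FPKM in shGRHL2 and 17.9% in shLuc, and EPGN 17.8% in shGRHL2 and 9.93% in shLuc. The total was 66.2 ± 4.50 FPKM in shGRHL2 and 103.3 ± 1.88 FPKM in shLuc.

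**Figure D3:**
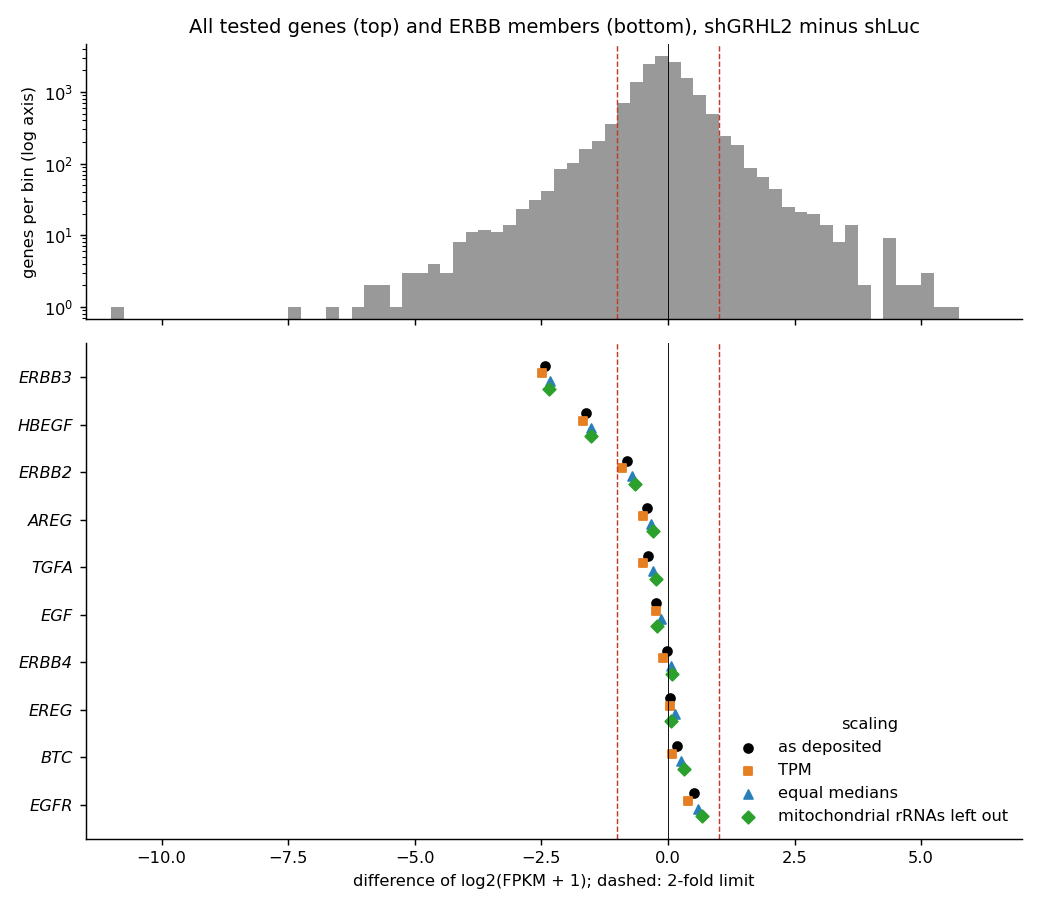
Top, number of tested genes (log axis) by difference of log2(FPKM + 1), shGRHL2 minus shLuc. Bottom, the same difference for the 10 members under 4 scalings of the runs, with dashed lines at the 2-fold limit: ERBB3 and HBEGF lie left of it under each scaling, the other members lie between the lines, and ERBB4 changes sign.

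Sheddases cut the ligand precursors, and none of the 8 tested genes of this list passed the limit. Over all tested genes, 4.97% were higher and 7.24% lower. All 8 had a difference below 0 as deposited, from -0.87 to -0.09, with a median of -0.37 beside -0.10 over all tested genes, and from -0.47 to -0.21 under the other scalings. ADAM17, the main sheddase of TGFA, AREG and HBEGF, averaged 23.2 FPKM in shGRHL2 and 30.2 FPKM in shLuc. Of the 8 genes, 6 had every shGRHL2 run below every shLuc run, against 33.2% of all tested genes.

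Genes that restrain the receptors or steer their turnover were 1 higher and 1 lower of 14 tested, against 4.97% and 7.24% of all tested genes. Their median difference was -0.12, which became 0.03 with the mitochondrial ribosomal RNAs left out. LRIG3, of a family of membrane proteins of which LRIG1 is known to restrain ERBB receptors, was at 11.7, 11.5, 13.9 and 11.2 FPKM in the shGRHL2 runs, against 5.80, 4.52, 4.26 and 4.59 FPKM in the shLuc runs. CBLC, a ubiquitin ligase of the CBL family found in epithelia, was at 2.06, 2.00, 1.98 and 1.86 FPKM in the shGRHL2 runs, against 9.04, 5.67, 6.94 and 7.20 FPKM in the shLuc runs. LRIG3 was thus higher (1.18) and CBLC lower (-1.45) on the log2 scale, with no overlap of runs in either. The remaining 12 genes stayed within the limit. Among them, LRIG1 (0.74) had every shGRHL2 run above every shLuc run, while CBL (-0.50) and ERRFI1 (-0.62) had every shGRHL2 run below. LRIG1 averaged 3.71 FPKM in shGRHL2 and 1.82 FPKM in shLuc, 2.04-fold higher before the pseudocount. Of the 14 genes, 7 had every shGRHL2 run below and 2 above, against 33.2% and 18.5% of all tested genes.

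Of the 24 adaptors and kinases that carry the signal inward, none passed the limit as deposited. Over all tested genes, 4.97% were higher and 7.24% lower. The median difference of the list was -0.26, or -0.12 with the mitochondrial ribosomal RNAs left out. Every shGRHL2 run was below every shLuc run in 13 of the 24 and above in 6, against 33.2% and 18.5% of all tested genes. PIK3R1, the regulatory subunit of PI 3-kinase, at 0.97, and PIK3CB, a catalytic subunit, at -0.95, were closest to the limit. Before the pseudocount, mean FPKM in shGRHL2 was 2.12-fold higher for PIK3R1 and 2.09-fold lower for PIK3CB. Between 0 and 2 genes of this list passed under the other settings.

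Among 17 genes known to be induced by ERK or to feed back on it, 2 were higher and 4 lower, against 4.97% and 7.24% of all tested genes. The median difference was -0.21 beside -0.10 over all tested genes, and -0.06 beside 0.04 with the mitochondrial ribosomal RNAs left out. DUSP5, a phosphatase of ERK in the nucleus, averaged 2.83 FPKM in shGRHL2 and 15.0 FPKM in shLuc (-2.06). CCND1, cyclin D1, averaged 89.5 FPKM in shGRHL2 and 218.2 FPKM in shLuc (-1.28). Both were lower, as were SPRY1 (-1.22) and SPRED2 (-1.17), inhibitors of the RAS–ERK cascade. FOS, a transcription factor of the AP-1 complex, was higher at 2.62 FPKM in shGRHL2 and 0.53 FPKM in shLuc (1.25). DUSP6, a phosphatase of ERK in the cytoplasm, was also higher as deposited (1.10) but within the limit under TPM scaling (0.99), and it was named after its values were seen. The list held genes that moved in both directions, and MYC, EGR1, FOSL1 and ETV5 stayed within the limit. Of the 17 genes, 7 had every shGRHL2 run below every shLuc run and 5 above, against 33.2% and 18.5% of all tested genes.

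Of 10 membrane proteins that associate with the receptors or ligands, 3 were lower and none higher, against 7.24% and 4.97% of all tested genes. The median difference was -0.47 beside -0.10 over all tested genes, and -0.31 beside 0.04 with the mitochondrial ribosomal RNAs left out. MUC4, a mucin reported to bind ERBB2, was at 0.65, 0.68, 0.72 and 0.41 FPKM in the shGRHL2 runs, against 31.5, 32.3, 35.2 and 34.7 FPKM in the shLuc runs. MUC1, another membrane mucin, averaged 1.17 FPKM in shGRHL2 and 6.29 FPKM in shLuc, or 4.97 FPKM in shLuc without its run 3. CD9, a tetraspanin that associates with the HBEGF precursor, was at 101.4, 102.7, 107.5 and 100.2 FPKM in the shGRHL2 runs, against 246.4, 249.9, 262.4 and 251.8 FPKM in the shLuc runs. The log2 differences were -4.42 for MUC4, -1.70 for MUC1 and -1.29 for CD9. CAV1, a caveolar protein, had every shGRHL2 run above every shLuc run (0.77). MET (-0.48) and CD44 (-0.17) had every shGRHL2 run below every shLuc run, and the differences of CAV1, MET and CD44 were within the limit. Of the 10 genes, 8 had every shGRHL2 run below and 1 above, against 33.2% and 18.5% of all tested genes.

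**Figure D4:**
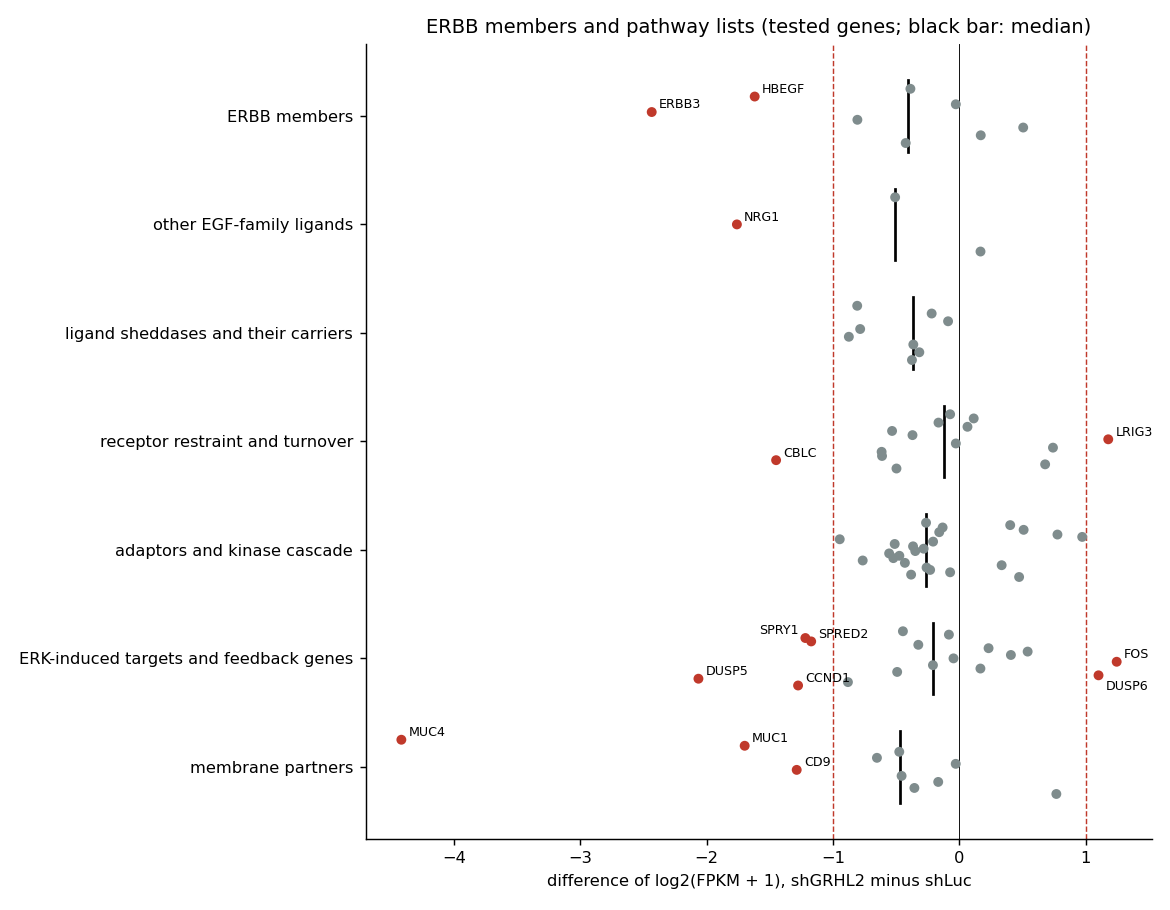
Difference of log2(FPKM + 1), shGRHL2 minus shLuc, for each tested gene of the ERBB members and of 6 pathway lists, 1 point per gene, with the median as a black bar and dashed lines at the 2-fold limit. Genes past the limit are red and named: 2 members and 12 list genes, of which 9 list genes are lower and 3 higher.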

How the data were processed

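RNA of the OVCA429 shGRHL2 and shLuc lines was sequenced in 8 labelled samples. As given in the labels and in the methods of the study, the authors demultiplexed with bcl2fastq 2.17.1.14, aligned to hg19 with STAR 2.4.2a and quantified with RSEM 1.2.25 against Gencode v19, and deposited 1 table of FPKM per gene. RSEM estimates how to share out fragments that fit more than 1 transcript. The study's own test, EBSeq, needs counts, and FPKM were not treated as counts. The table's lengths belong to no named sample, so fragment numbers (FPKM times effective length, scaled by the steps of low values, of which 88.0% to 89.4% per run were whole within 0.1 fragment) are approximate.

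Run values of log2(FPKM + 1) were averaged per group and subtracted, shGRHL2 minus shLuc, over genes of mean FPKM 1 or more in at least 1 group, in Python 3.11.15 with numpy 2.4.6 and pandas 2.3.3. The pseudocount of 1 understates changes of low genes. The rule for counting samples as 1 library was a median CV under 3% in both groups, chosen with earlier results of these data known. The measure was tested on simulated data. The alternatives were pseudocounts of 0.1 and 0.5, no filter or 5 FPKM, TPM, equal medians, totals without mitochondrial ribosomal RNA, averaging before the log, and leaving out each run. Summing ERBB3 with RP11-603J24.9 was added after seeing the data.

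The members and lists were chosen with earlier results of these data known. Named were all members, AREGB, the other ligands and both neighbour lists, and of each further list the genes past the limit, up to 5 by size. Genes of those lists named outside this rule (ADAM17, CBL, LRIG1, ERRFI1, PIK3R1, PIK3CB, DUSP6, MYC, EGR1, FOSL1, ETV5, CAV1, MET and CD44), RP11-603J24.9, EGFR-AS1 and the markers were picked with their values seen. One marker symbol (PECAM1) was not matched, and MIEN1 was matched by an older symbol. Gene positions are from Gencode v44 lifted to GRCh37, a later annotation than the authors used. Motifs were searched on both strands of RefSeq windows.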

Additional observations from a re-analysis of the deposited data

Results flagged for a closer look

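The highest or lowest of 4 runs of a group was checked for a gap that takes up nearly the whole range of the group (Dixon's criterion at its 95% level), in 74 sets of 4 runs over 39 genes. Chance alone gives such a gap in about 1 of 20 sets of normally spread values, and 6 were found, 1 of them in a member. That rate does not hold for sets with most runs at or near 0, as in EREG, IKZF3, GRHL2 and RP11-603J24.9. EREG read 0.22 FPKM in shGRHL2 run 1 while the next highest run read 0.02, and its mean was 0.065 FPKM with that run and 0.0133 FPKM without it. NRG4 read 6.11 FPKM in shLuc run 2 while the next highest read 1.49, and its shLuc mean was 2.60 FPKM with that run and 1.42 FPKM without it. MUC1 read 10.24 FPKM in shLuc run 3 while the next highest read 5.40, and its shLuc mean was 6.29 FPKM with that run and 4.97 FPKM without it. IKZF3 read 0.08 FPKM in shLuc run 3 and was listed at 0 in the other runs. GRHL2 read 1.17 FPKM in shGRHL2 run 3 while the next highest read 0.15, and its shGRHL2 mean was 0.388 FPKM with that run and 0.127 FPKM without it. RP11-603J24.9 read 5.06 FPKM in shGRHL2 run 4 and was listed at 0 in the other shGRHL2 runs.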

How the results depend on the processing

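ERBB3 and HBEGF were the members past the limit under each of the 16 planned settings, and all 162 values of members under the alternatives kept their side of the limit. The summed FPKM of ERBB3 and RP11-603J24.9, which differ in length, gave -2.62 beside -2.43 for ERBB3 alone. The number of tested genes past the limit was 1833 as reported and 2987 with a pseudocount of 0.1 (1324 higher and 1663 lower), and 464 genes were higher with a filter at 5 FPKM, beside 746. AREGB passed the limit with a pseudocount of 0.1 (1.10), on about 3 fragments. In the list of adaptors, 2 genes passed with pseudocounts of 0.1 and 0.5, and 1 passed under TPM, equal medians, totals without mitochondrial ribosomal RNA, and without shLuc run 4 or shGRHL2 run 3. The median of all tested genes was 0.04 with mitochondrial ribosomal RNA left out, beside -0.10. The causes were not tested. No paired analysis was possible because the samples of each group were counted as runs of 1 library, from their spread and their descriptions, and the comparison comes from no test. With 1 hairpin and each line counted as 1 library, the knockdown cannot be told apart from other differences between the 2 lines. EGF and EREG were too low to compare.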
